A study of Mus musculus with 8 samples.

Results

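The translation initiation and elongation factors of the array were 63 genes, read by 101 probe sequences of 60 bases, out of 20832 genes named on an array of 39429 probe sequences. Members were chosen by gene name: every non-control probe whose name begins with Eif1 to Eif6, Eef1 or Eef2, leaving out Eif4ebp1, Eif2s3x and Eif2s3y. The name rule was selected on no value of a single gene, but the family was proposed with fasted against fed results of these arrays already known, so its counts and medians are given as a description and nothing is read from the list as a whole. After a filter on signal, 62 of the 63 genes and 97 of the 101 probe sequences were tested, among 15184 genes and 26066 probe sequences. Eif4e1b, an oocyte-type relative of the cap-binding protein, was the gene that did not pass the filter.

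The study set brains of fasted mice against brains of fed mice, with 17 h of fasting or feeding, to describe the response of mouse brain to fasting. Total RNA of 4 fasted and 4 fed samples was labelled with Cy3 and each hybridised to 1 array. Strain, age, sex, the brain region and the number of mice behind a sample are not given in the labels used here, so a p-value here covers no more than how far these samples scatter, possibly a technical scatter alone. The arrays sat on 2 slides with 2 fasted and 2 fed samples each. Fasted samples were at positions 1 and 3 and fed samples at positions 2 and 4 of both slides, so position and fasting cannot be told apart.

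Between 62.3% and 69.0% of probe sequences were well above background on an array. All 4 of 4 markers of neurons, astrocytes, oligodendrocytes, microglia, endothelium and choroid plexus were above background, as were all 3 red blood cell markers matched on the array and 3 of 4 markers of skeletal muscle and of liver, while 0 of 4 pituitary markers were. The mean level of the 4 microglial markers was 0.45 to 0.75 in fasted and 0.86 to 0.95 in fed samples, with 3 of 4 lower in fasted samples at an adjusted p under 0.05. For the 4 oligodendrocyte markers it was 4.15 to 4.26 in fasted and 4.32 to 4.43 in fed samples, with 2 of 4 lower. Neuronal markers were 5.16 to 5.26 in fasted and 5.05 to 5.21 in fed samples, with 0 of 4 called. At the same threshold 1 of 4 astrocyte markers was lower and 1 of 4 endothelial markers higher, with 0 of 4 choroid plexus markers called. Over all genes 18.6% passed. The part of cell makeup in the differences below was not tested, and in bulk tissue fewer cells of a type and less RNA per cell cannot be told apart.

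Translation starts when eIF2, carrying GTP and the initiator tRNA, joins the small ribosomal subunit with eIF1, eIF1A, eIF3 and eIF5, and the eIF4F complex brings this assembly to the capped 5' end of an mRNA. After the start codon is found, eIF5 stimulates GTP hydrolysis by eIF2, eIF5B joins the large subunit, and eIF2B reloads eIF2 with GTP. Elongation is then driven by eEF1A, which delivers aminoacyl-tRNA, and eEF2, which moves the ribosome. Cells restrain these steps mainly on the proteins, through kinases of eIF2, through 4E-binding proteins under mTORC1 and through the kinase of eEF2, none of which an mRNA array measures.

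The results turn on a few probe sequences, and some genes have several that did not give the same answer. The first 30 of the 60 bases are shown for these, each written 5' to 3' in the sense of the transcript, all in lower case because no stretch of them is singled out, so that sequences that disagreed can be told apart. Positions are those the array files give on mouse build mm9. Which part of the transcript (exon, UTR or an alternative end) lies under each was not analysed here, nor whether a sequence also matches other transcripts. All 77 of 77 tested member probe sequences whose gene has a strand in RefSeq lay on that strand.

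Eif5 brightest (chr12:112784725-112784784, plus strand): cgttgctctattgaggtgtcataaagtttc
Eif5 other (chr12:112778375-112778434, plus strand): acagacccagtttgatgttaagaatgaccg
Eef2k brightest (chr7:128038721-128038780, plus strand): aggctttgattacttactgaaggcggcaga
Eef2k second (chr7:128043027-128046821, plus strand): ggatttggactggacaagaacccccaaaga
Eef2k downstream (chr7:128050093-128050152, plus strand): acaagctttatgagtgtaaaaaagaaacat
Eif2ak2 (chr17:79252168-79252227, minus strand): tccttgttgttctttcagacttgctttgta
Eif1ad brightest (chr19:5370188-5370247, plus strand): caaagatggcccctttctgaactgacctaa
Eif1ad other (chr19:5371355-5371414, plus strand): ttttgaacaaatcttatgatcataccctct
Eif2s1 brightest (chr12:79986224-79986283, plus strand): ccagggactccaaacacaaacaatcccaat
Eif2s1 other (chr12:79987922-79987981, plus strand): taattccagtacttgggaggctagcctagt
Eif2c4 brightest (chr4:126169537-126169596, minus strand): gccctttctcctgacgtcgttttctagatg
Eif2c4 other (chr4:126167162-126167221, minus strand): aaagcggaagttaaggtcatcatactaata

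Most of the translation machinery differed little between fasted and fed brain. Of the 62 genes tested, 8 were higher and 2 lower in fasted brain at an adjusted p under 0.05 (limma with Benjamini-Hochberg adjustment over all 26066 probe sequences, each gene read by its brightest one), which is 16.1% of them. Over all 15184 genes 18.6% passed, 9.48% higher and 9.11% lower, so the share among the factors was near the background. By their brightest sequences, the 8 higher genes were Eef2k, Eif5, Eif2ak2, Eif1ad, Eif4e2, Eif2s2, Eif3c and Eif2ak3. Both lower genes, Eif2c3 and Eif2c4, are translation factors only by their old names: RefSeq calls them Ago3 and Ago4, Argonaute proteins of microRNA silencing. Without the 4 Argonautes, 8 of 58 genes passed, each higher by its brightest sequence; for 1 of them, Eif1ad, a second sequence passed in the other direction, so its place among the higher genes rests on the choice of sequence.

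By the brightest sequence of each gene, the differences were small. The median log2 difference (fasted minus fed) of the 62 genes was 0.03, with 41 above and 21 below 0, against -0.01 over all genes, and the median size of a difference was 1.05-fold against 1.07-fold. Groups did not overlap in 18 of the 62 genes, 13 of them higher and 5 lower in fasted brain, while 27.2% of all genes had groups that did not overlap. Of the 52 genes that did not pass, 49 had a 95% interval that stayed within 1.2-fold in either direction and 51 within 1.3-fold. The exception was Eif5b, whose signal was close to background.

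**Figure D1:**
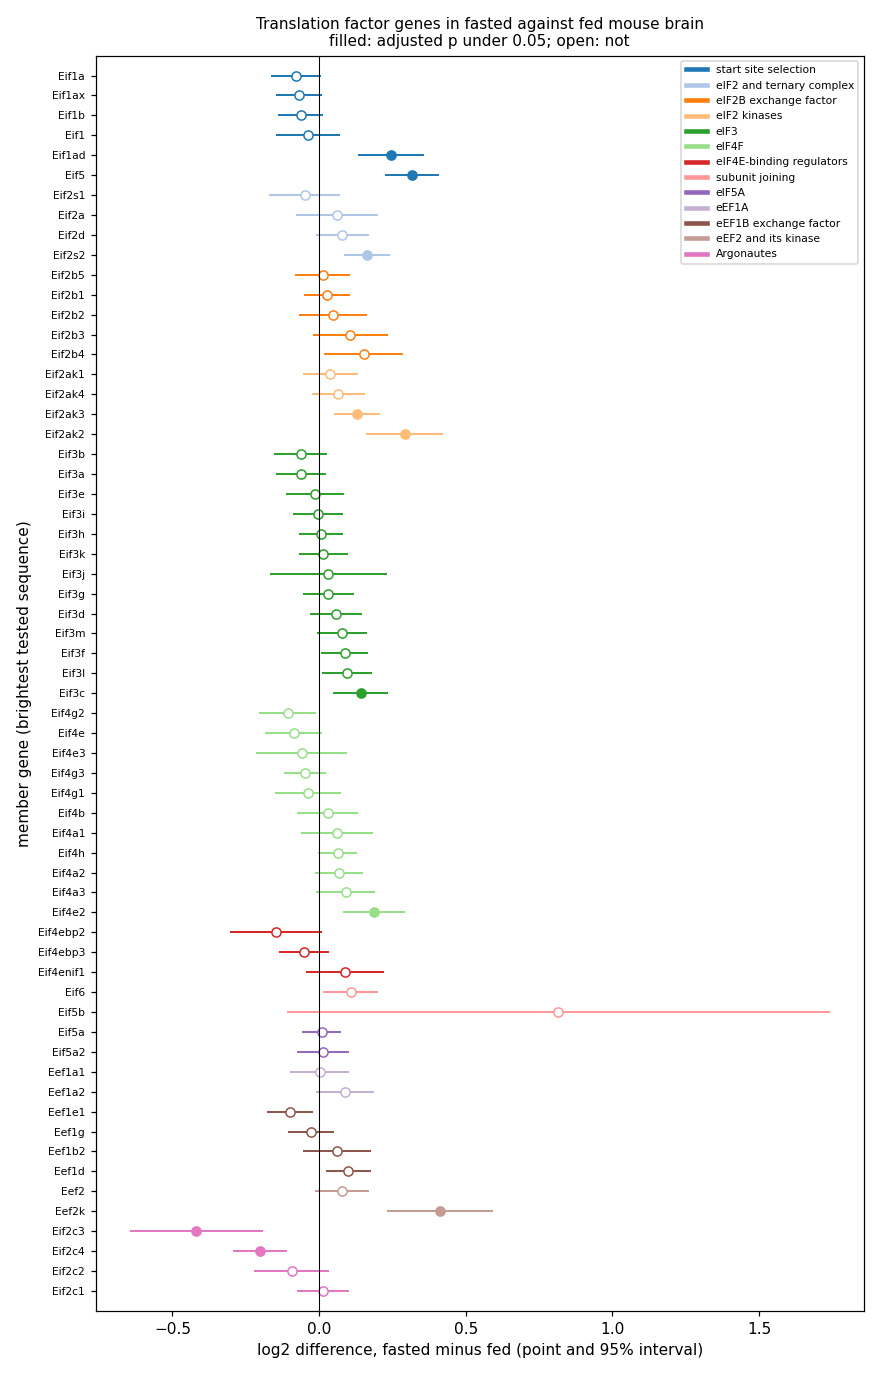
Log2 difference (fasted minus fed, horizontal axis) of the 62 tested member genes, grouped by role and coloured by it, with a point for the estimate and a line for its 95% interval; filled points had an adjusted p under 0.05. Each point is the brightest sequence of a gene. Of the 52 open points, 49 have intervals within 1.2-fold, while Eif5b at 0.82 has the widest.

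The clearest difference among the initiation factors was in Eif5, the GTPase-activating factor of eIF2. Its normalized log2 signal (log2 intensity minus the array's 75th percentile) was 3.55, 3.52, 3.52 and 3.42 in fasted samples and 3.24, 3.19, 3.17 and 3.16 in fed samples. Every fasted value lay above every fed value, and the mean was 1.25-fold higher (log2 difference 0.32 ± 0.04, SE, n = 4 and 4, limma adjusted p = 0.00286), with 0.32 on slide 1 and 0.31 on slide 2. The other Eif5 probe sequence also rose, by 0.17 (adjusted p = 0.0187).

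Of the other genes grouped with start-site selection, Eif1ad alone passed, with probe sequences that disagreed. Eif1ad is placed in this group by its name. Eif1, Eif1a, Eif1ax and Eif1b, which scan for and proofread the start codon, had differences from -0.08 to -0.04 by their brightest sequences and none passed. In Eif1a and Eif1b the groups did not overlap. Another Eif1 sequence gave 0.04 (adjusted p = 0.379). Eif1ad, an eIF1A-domain protein, read 2.83, 2.83, 2.98 and 2.87 in fasted and 2.57, 2.58, 2.68 and 2.69 in fed samples by its brightest sequence, a difference of 0.24 ± 0.05 (adjusted p = 0.0132). Its other probe sequence was lower in fasted samples, at -0.13 (adjusted p = 0.0332), with values of -0.80, -0.82, -0.78 and -0.87 against -0.72, -0.71, -0.66 and -0.66. Both sequences separated the groups in opposite directions, so no direction is given for the gene.

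Of the eIF2 subunits, Eif2s2 (the beta subunit) was higher in fasted brain. It read 2.50, 2.52, 2.53 and 2.52 in fasted and 2.31, 2.35, 2.36 and 2.41 in fed samples, without overlap, a difference of 0.16 ± 0.03 (adjusted p = 0.0144). Its other probe sequence differed by 0.10 and did not pass (adjusted p = 0.397). The call was lost with normexp background correction (0.15, adjusted p = 0.0886) and by the mean of both sequences (0.13, adjusted p = 0.0978). Eif2s1, the alpha subunit that the eIF2 kinases phosphorylate, read 0.91, 0.83, 0.99 and 0.94 in fasted and 0.94, 0.88, 1.06 and 0.98 in fed samples by its brightest sequence, where the groups overlapped (difference -0.05, adjusted p = 0.537). A second Eif2s1 sequence gave the opposite sign and passed (0.24 ± 0.05, adjusted p = 0.0158), with -1.24, -1.12, -1.28 and -1.27 in fasted against -1.38, -1.52, -1.5 and -1.48 in fed samples. Eif2a and Eif2d, alternative carriers of the initiator tRNA, differed by 0.06 and 0.08, and neither passed.

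None of the 5 eIF2B subunits passed by its brightest sequence, and all 5 differences were above 0, from 0.01 to 0.15. Eif2b4 (delta subunit) read 2.51, 2.53, 2.67 and 2.54 in fasted and 2.39, 2.42, 2.32 and 2.54 in fed samples, where fed replicate 4 equalled the level of fasted replicate 2 (difference 0.15, adjusted p = 0.108). Eif2b5, the catalytic epsilon subunit, read -0.07, -0.12, 0.01 and -0.01 in fasted and -0.10, -0.09, -0.02 and -0.03 in fed samples and overlapped throughout (difference 0.01, adjusted p = 0.87). A second Eif2b3 sequence passed, at 0.23 (adjusted p = 0.0185), against 0.11 for the brightest one.

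All 4 eIF2 kinases had positive differences, and 2 of them passed. Eif2ak2, which encodes PKR, the kinase activated by double-stranded RNA, read -3.36, -3.24, -3.33 and -3.48 in fasted and -3.67, -3.70, -3.57 and -3.63 in fed samples. The groups did not overlap and the mean was 1.22-fold higher (0.29 ± 0.06, adjusted p = 0.0126), with 0.39 on slide 1 and 0.19 on slide 2. The Eif2ak2 call was lost with another background correction (normexp), where the difference was 0.10 (adjusted p = 0.295). The only Eif2ak2 sequence was dim, at 130 to 191 intensity units.

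Eif2ak3, which encodes PERK of the endoplasmic reticulum, read -0.53, -0.54, -0.45 and -0.54 in fasted and -0.66, -0.64, -0.62 and -0.66 in fed samples, a difference of 0.13 ± 0.03 (adjusted p = 0.0319). Leaving out any 1 array other than fasted replicate 3 took its adjusted p above 0.05, up to 0.0785 without fed replicate 1. With the replicate block it was 0.0522, with median scaling 0.0665, with no filter 0.0862 and with normexp background correction 0.13. Eif2ak1 (HRI, the heme-regulated kinase) read -1.18, -1.29, -1.17 and -1.26 against -1.28, -1.28, -1.21 and -1.28, with overlap (0.04, adjusted p = 0.536). Eif2ak4 (GCN2, the kinase that senses uncharged tRNA) read -0.08, -0.13, -0.03 and -0.02 against -0.14, -0.17, -0.10 and -0.10, again with overlap (0.07, adjusted p = 0.257).

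**Figure D2:**
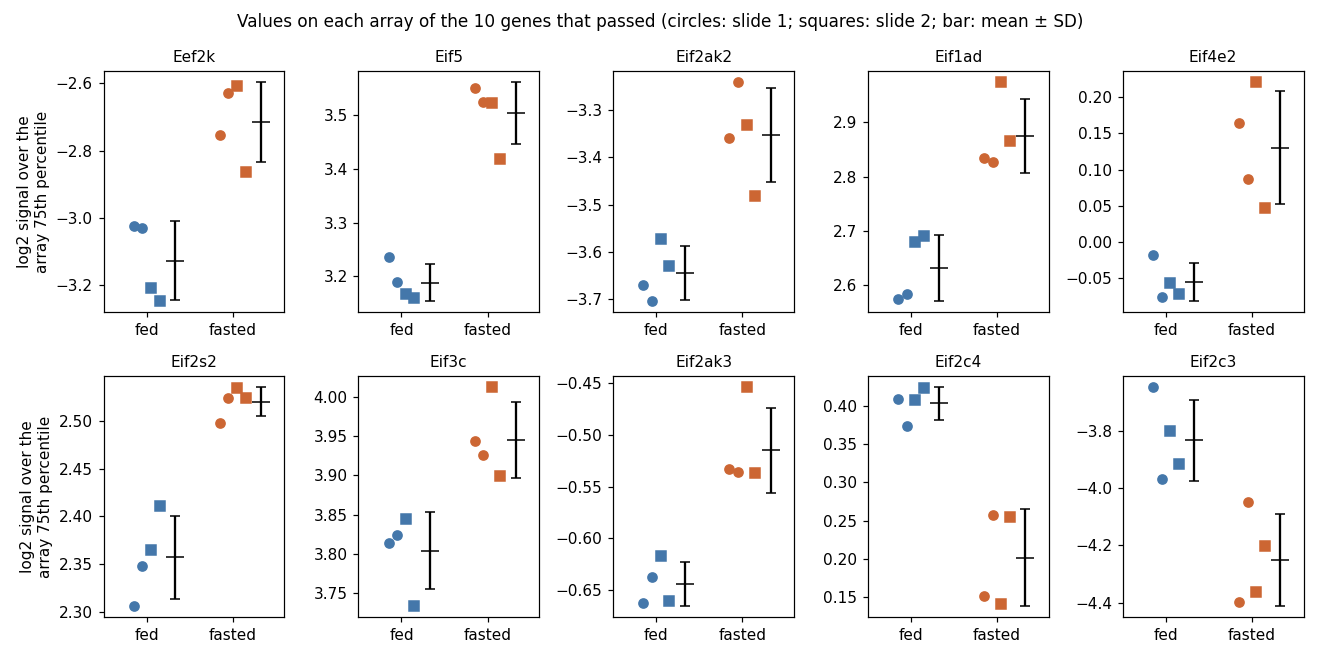
Normalized log2 signal (vertical axes, with a separate scale in each panel) on each of the 4 fed and 4 fasted arrays for the 10 genes that passed; circles are slide 1, squares slide 2, and the bar is the mean ± SD. In all 10 panels the fed and fasted points do not overlap, with a log2 difference from 0.41 for Eef2k to -0.42 for Eif2c3.

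The eIF3 complex, the large scaffold on the small subunit, differed little. Of its 13 genes, 1 was higher and none lower, with 9 differences above 0 and a median of 0.03. Eif3c, a core subunit, read 3.94, 3.93, 4.01 and 3.90 in fasted and 3.81, 3.82, 3.84 and 3.73 in fed samples, a difference of 0.14 ± 0.04 (adjusted p = 0.0449). This difference fell short of the threshold in each of the 8 fits that left out 1 array (0.0599 to 0.0955) and with the slide as a block (0.0523). It also fell short with median scaling (0.0716), normexp background correction (0.0582) and no filter (0.105). The other Eif3c sequence gave 0.11 without overlap and did not pass (adjusted p = 0.0546). Eif3a, the largest subunit, read 0.47, 0.39, 0.38 and 0.49 against 0.46, 0.49, 0.51 and 0.50 (-0.06, adjusted p = 0.277). The other 11 subunits ranged from -0.06 to 0.09. Among them Eif3f (0.09, adjusted p = 0.109) and Eif3l (0.09, adjusted p = 0.107) had groups without overlap, as 27.2% of all genes did. A second Eif3j sequence passed at 0.18 (adjusted p = 0.0208), against 0.03 for the brightest one.

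Among the 11 cap-binding, scaffold and helicase genes, 1 was higher. That gene was Eif4e2 (4EHP), a cap-binding protein that represses rather than starts translation. It read 0.16, 0.09, 0.22 and 0.05 in fasted and -0.02, -0.08, -0.06 and -0.07 in fed samples, a difference of 0.19 ± 0.04 (adjusted p = 0.0259), and its other sequence gave 0.29 (adjusted p = 0.0347). The first call was lost without fasted replicate 1 (adjusted p = 0.0699) and without fed replicates 2, 3 or 4 (0.0584 to 0.0666). It was also lost with normexp background correction (0.0863) and with no filter (0.0656).

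The initiating cap-binding protein gave no settled direction. Eif4e read 1.55, 1.47, 1.54 and 1.57 in fasted and 1.54, 1.62, 1.68 and 1.62 in fed samples, with overlap (-0.09, adjusted p = 0.184), while a second sequence of the gene gave 0.14 (adjusted p = 0.051). Eif4g1, the scaffold, read 2.96, 2.93, 2.95 and 2.81 against 2.99, 2.98, 2.96 and 2.87 (-0.04, adjusted p = 0.626). The RNA helicases Eif4a1 and Eif4a2 differed by 0.06 (adjusted p = 0.444) and 0.07 (adjusted p = 0.218).

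Eif4a1 values were 4.06, 4.19, 4.27 and 4.24 in fasted and 4.09, 4.10, 4.13 and 4.19 in fed samples. Eif4a2 values were 4.77, 4.81, 4.78 and 4.85 in fasted and 4.74, 4.75, 4.78 and 4.68 in fed samples. In both helicases the groups overlapped by these brightest sequences. A second Eif4a2 sequence gave 0.14 without overlap and did not pass (adjusted p = 0.0505). Of 4 sequences for Eif4g3, a second scaffold gene, the brightest gave -0.05 (adjusted p = 0.295), and 2 dimmer ones passed at 0.37 (adjusted p = 0.0321) and 0.29 (adjusted p = 0.0408). A sequence of Eif4b, the helicase cofactor, likewise passed at 0.21 (adjusted p = 0.0132) where the brightest gave 0.03.

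The 3 genes for eIF4E-binding regulators, Eif4ebp2, Eif4ebp3 and Eif4enif1, did not pass. Eif4ebp2, the main 4E-binding protein of brain, read 1.22, 1.2, 1.19 and 0.97 in fasted and 1.37, 1.34, 1.25 and 1.21 in fed samples, a difference of -0.15 ± 0.07 (adjusted p = 0.171) that was -0.09 without fasted replicate 4 (adjusted p = 0.284). Fasted replicate 4 was the low value and fed replicates 1 and 2 the high ones, and the groups overlapped in between.

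Eif6, which keeps ribosomal subunits apart, read 1.70, 1.72, 1.72 and 1.64 in fasted and 1.63, 1.64, 1.57 and 1.52 in fed samples. The groups overlapped by a narrow margin (0.11 ± 0.04, adjusted p = 0.0992). Eif5b, which joins the subunits, read -3.81, -4.63, -3.29 and -5.11 in fasted and -5.26, -4.40, -5.35 and -5.09 in fed samples and was well above background on only 3 fasted arrays and 1 fed array. Its difference of 0.82 ± 0.40 (adjusted p = 0.2) was the largest in the family and the least certain, with a 95% interval from 0.929-fold to 3.33-fold.

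The elongation factors themselves were level. Eef1a1 read 4.80, 4.86, 4.75 and 4.78 in fasted and 4.83, 4.85, 4.71 and 4.79 in fed samples, a difference of 0.0016 ± 0.04 (adjusted p = 0.985), and its 95% interval ran from 0.935-fold to 1.07-fold. Eef1a2, the form of mature neurons and muscle, read 2.62, 2.63, 2.74 and 2.57 against 2.55, 2.58, 2.54 and 2.54 (0.09, adjusted p = 0.186). Eef2 read 4.66, 4.62, 4.65 and 4.54 against 4.56, 4.57, 4.51 and 4.50 (0.08, adjusted p = 0.205). In Eef1a2 and Eef2 most fasted values lay above the fed ones, and the groups still overlapped.

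Eef1d, a subunit of the exchange factor that recharges eEF1A, did not overlap between groups and did not pass. It read 3.80, 3.80, 3.86 and 3.78 in fasted and 3.72, 3.68, 3.73 and 3.70 in fed samples (0.10 ± 0.03, adjusted p = 0.0651). Eef1e1, a small relative found in the tRNA synthetase complex, had groups apart in the other direction (-0.10, adjusted p = 0.078). Eef1b2 and Eef1g did not pass. The array annotation places the brightest Eef1g sequence on chromosome 15 (-0.03, adjusted p = 0.592). The other Eef1g sequences, on chromosome 19, gave -0.07 (adjusted p = 0.194) and -0.06 (adjusted p = 0.309). The hypusinated factor eIF5A was flat in both forms: Eif5a read 2.81, 2.78, 2.80 and 2.78 against 2.78, 2.79, 2.81 and 2.77 and Eif5a2 read 0.55, 0.45, 0.57 and 0.53 against 0.48, 0.51, 0.52 and 0.53, with differences of 0.01 in each.

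The regulator of elongation did differ. Eef2k, the calcium-dependent kinase that phosphorylates eEF2 and slows elongation, read -2.75, -2.63, -2.61 and -2.86 in fasted and -3.02, -3.03, -3.21 and -3.25 in fed samples. The groups did not overlap, and the mean was 1.33-fold higher (95% interval 1.18 to 1.51; log2 difference 0.41 ± 0.08, adjusted p = 0.0112), with 0.33 on slide 1 and 0.49 on slide 2. With normexp background correction the difference was 0.24 (adjusted p = 0.0679).

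The 3 Eef2k sequences printed above did not all give this result. The second rose as well, from -3.04, -3.18, -3.26 and -3.52 in fed to -2.50, -2.61, -2.83 and -2.76 in fasted samples (0.58, adjusted p = 0.0132). The most downstream one read -3.49, -3.92, -3.85 and -3.87 in fasted and -3.65, -3.65, -3.96 and -4.02 in fed samples, a difference of 0.04 (adjusted p = 0.866).

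The genes under old Eif2c names were the only members called lower by their brightest sequence. Eif2c4 (Ago4) read 0.15, 0.26, 0.14 and 0.26 in fasted and 0.41, 0.37, 0.41 and 0.42 in fed samples, without overlap (-0.20 ± 0.04, adjusted p = 0.0126), and its other sequence gave -0.21 (adjusted p = 0.0143). Eif2c3 (Ago3) read -4.40, -4.05, -4.36 and -4.20 in fasted and -3.65, -3.97, -3.80 and -3.92 in fed samples (-0.42 ± 0.10, adjusted p = 0.0239). Its call was lost without fasted replicate 1 or 3 or fed replicate 1 or 3 (adjusted p 0.0512 to 0.0627) and with the replicate block (adjusted p = 0.0742). It was also lost with quantile normalization (-0.33, adjusted p = 0.0684) and with no filter (adjusted p = 0.0542). The only Eif2c3 sequence was dim, at 92 to 132 intensity units. Eif2c1 (Ago1) and Eif2c2 (Ago2) differed by 0.01 and -0.09 and did not pass.

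How far probe sequences of a gene gave the same answer could be read in 25 genes with several tested. In 17 of them all sequences had the same sign and in 8 the signs were mixed. In 3 genes, Eif5, Eif4e2 and Eif2c4, every sequence passed in the same direction, and in Eif1ad they passed in both directions. In 5 genes (Eif2b3, Eif2s1, Eif3j, Eif4b and Eif4g3) the brightest sequence did not pass and another did. Counted by sequence, 21 of 97 passed (21.6%), 17 higher and 4 lower, where 16.9% of all probe sequences did.

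**Figure D3:**
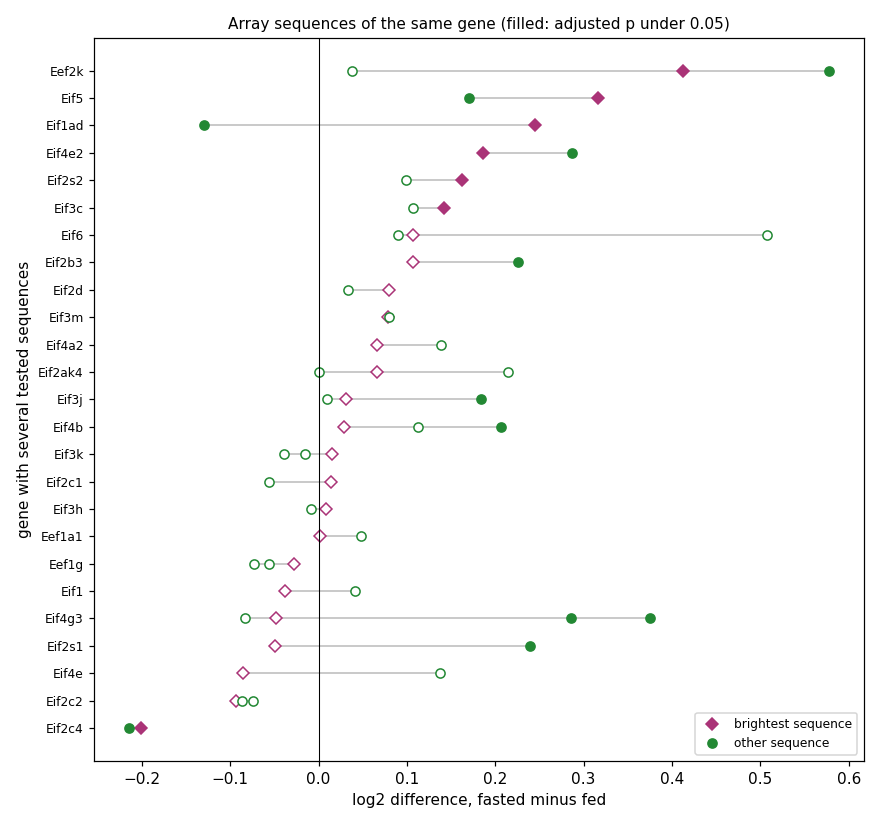
Log2 difference (fasted minus fed, horizontal axis) of every tested probe sequence of the 25 genes with several; diamonds are the brightest sequence of a gene, circles the others, and filled symbols had an adjusted p under 0.05. Eif1ad has filled symbols on both sides of 0 (0.24 and -0.13), and Eef2k spans 0.04 to 0.58.

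All 10 genes that passed had the same sign on both slides. Their fasted and fed values did not overlap, which fixes that sign in advance, so it adds no separate support. Among the 62 genes, 58 had the same sign on both slides and 4 had opposite signs. Over the whole array 11931 of 15184 genes had the same sign on both. The median difference of the family was 0.02 on slide 1 and 0.05 on slide 2. With 2 arrays a group, no gene of the whole array passed within either slide (limma adjusted p), and at an unadjusted p under 0.05, 8 of 62 members passed on slide 1 (12.9%, against 23.2% of all genes) and 5 on slide 2 (8.06% against 15.5%).

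**Figure D4:**
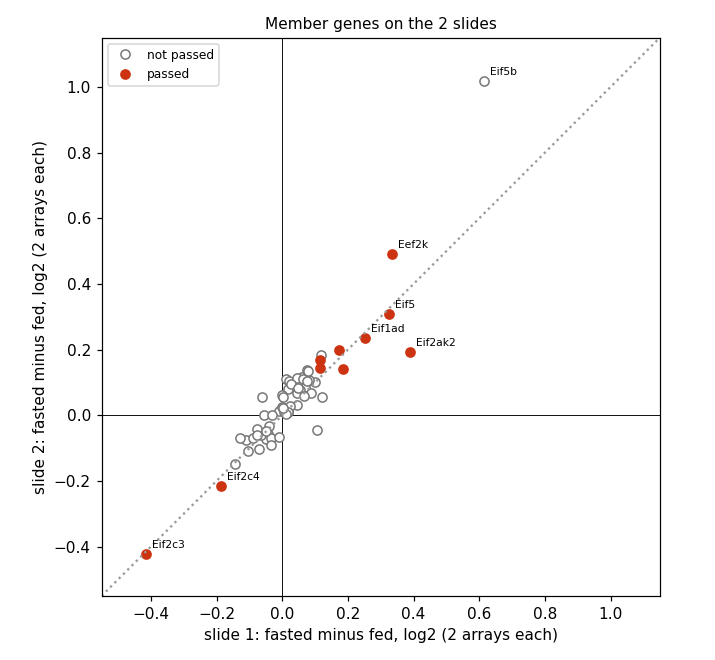
Log2 difference (fasted minus fed) of the 62 tested member genes on slide 1 (horizontal axis) and slide 2 (vertical axis), each from 2 fasted and 2 fed arrays, with the dotted line marking equal values; red points passed over both slides. The 10 red points have the same sign on both slides, which follows from groups that do not overlap. Eif2ak2 is at 0.39 on slide 1 and 0.19 on slide 2.

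Genes outside the members that act with these factors, Eif4ebp1 among them, were described from 7 lists. Of these 71 genes, 14 passed (19.7%, against 18.6% of all genes), 9 higher and 5 lower. With the replicate block 8 passed (11.3%, against 16.1% of all genes). Both shares were near or below the background, so the genes named next are given one by one and nothing is read from a list. Among 7 genes that control eIF2 phosphorylation or respond to it, Ppp1r15a (GADD34, which directs a phosphatase to eIF2) rose by 0.30 ± 0.05 (adjusted p = 0.0082), Ddit3 (CHOP, a stress transcription factor) fell by 0.25 (log2 difference -0.25, adjusted p = 0.0104) and Gcn1l1, the activator of GCN2, did not pass (0.08, adjusted p = 0.185). Among 12 genes of mTORC1 and MNK signalling, Eif4ebp1 (4E-BP1, an inhibitor of eIF4E) rose by 0.24 (adjusted p = 0.0087) and Sesn1 (sestrin 1, an mTORC1 inhibitor) by 0.20 (adjusted p = 0.01), and Mknk2, an eIF4E kinase, was lower (-0.14, adjusted p = 0.0274).

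Among 12 poly(A)-binding and 5' mRNA regulators, the helicase Ddx3x rose by 0.27 ± 0.04 (adjusted p = 0.0037), the helicase Dhx29 was lower (-0.19, adjusted p = 0.0224) and Abcf1 did not pass (-0.12, adjusted p = 0.108). Of 20 cytosolic tRNA synthetases, 16 had differences above 0 (median 0.09), and Hars (0.20, adjusted p = 0.00696) and Rars (0.28, adjusted p = 0.0211) passed, while Nars did not (0.09, adjusted p = 0.0785). Of 6 termination and recycling genes, Etf1, the release factor eRF1, rose by 0.19 (adjusted p = 0.0111), Abce1, the recycling ATPase, was lower (-0.14, adjusted p = 0.0346) and Pelo did not pass (0.10, adjusted p = 0.222). Of 6 enzymes that make hypusine on eIF5A or diphthamide on eEF2, all had differences above 0 and Dph1 passed (0.17, adjusted p = 0.0252). Of 8 mitochondrial factors, Mtrf1 was higher (0.21, adjusted p = 0.0297) and Tufm lower (-0.12, adjusted p = 0.0493).

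Promoters of 50 of the 63 members were available from RefSeq (build GRCm38.p6), as windows from 250 bases before to 50 after a start. Their median GC content was 62.7%, against 52.7% over all windows. The E-box CACGTG was in the windows of 12 of 50 members (24%) and of 8.09% of all 27025 genes, and the ETS site CCGGAAGT in 9 (18%) against 4.31%. Of the 12 genes with an E-box 1 (Eef2k) passed in fasted brain, and of the 9 with an ETS site 1 (Eif4e2); with 18.6% of all genes called, nothing is read from counts this small.

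In all, 10 motifs were searched, chosen after the values were seen, and the other 8 were each in 8 members or fewer. Searched on both strands, TGACGTCA was in 1 member (2% of members against 2.03% of all genes), the amino acid response element TGATGNAA in 1 (Eef2k; 2% against 4.51%), the FOXO site TGTTTAC in 0 (against 4.05%) and the glucocorticoid receptor palindrome ACANNNTGT in 1 (2% against 7.9%). The interferon-stimulated element GAAANNGAAA was in 3 (Eif2ak2, Eif2s1 and Eif3a; 6% against 3.99%), an NRF1 site in 1 (2% against 1.07%) and a YY1 site in 1 (2% against 0.755%). A terminal oligopyrimidine tract, taken on the sense strand as a C and at least 5 pyrimidines that begin from 6 bases before to 5 after the start, was in 8 members (16%) and 14.3% of genes. A match describes the letters and is no site of binding.

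Of the 3 RefSeq starts of Eef2k, the ones with a match are shown because Eef2k was the called gene that held both an E-box and the amino acid response element. The 250 bases before each start are on the plus strand of GRCm38.p6, with the match in capitals.

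Eef2k start with the E-box (chr7:120842581-120842830): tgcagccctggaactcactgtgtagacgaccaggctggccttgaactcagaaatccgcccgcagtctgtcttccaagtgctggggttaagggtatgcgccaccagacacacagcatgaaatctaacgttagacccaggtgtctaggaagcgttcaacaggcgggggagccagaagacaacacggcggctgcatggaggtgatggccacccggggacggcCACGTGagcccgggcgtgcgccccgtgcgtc
Eef2k start with the amino acid response element (chr7:120850939-120851188): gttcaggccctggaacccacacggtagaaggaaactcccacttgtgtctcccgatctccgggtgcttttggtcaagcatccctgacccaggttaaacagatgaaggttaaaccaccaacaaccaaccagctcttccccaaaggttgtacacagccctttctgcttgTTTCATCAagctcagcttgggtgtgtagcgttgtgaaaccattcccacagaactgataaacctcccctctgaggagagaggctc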

How the data were processed

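Cy3-labelled RNA of 8 mouse brain samples was read on 1-colour Agilent arrays, 1 array a sample. The deposited scanner files hold intensity per spot, background-subtracted by Feature Extraction, version 11.0.1.1 per the file headers and 10.10.1.1 per the submitters' processing notes. The deposited series table, used as an alternative, holds a linear ratio per spot to a baseline that stays unknown, and its column medians were 0.97, 0.993, 0.973 and 0.987 in fasted and 0.987, 1.02, 0.991 and 1.02 in fed samples; its log2 values, with each spot's mean removed, matched those of the scanner files in direction with a median spread of 0.00018. No array pair held identical values, and replicates correlated at r = 0.994 to 0.998 over probe sequences.

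Intensity was taken as log2 and each array's 75th percentile (1651 to 1944 intensity units) was subtracted. Control spots and outlier-flagged spots (128 to 217 an array) were left out, spots of a probe were averaged, and no spot was saturated. A probe sequence was kept where it was well above background on at least 4 arrays. Fasted against fed was tested in R 4.3.3 with limma 3.58.1 (lmFit, eBayes, two-sided, Benjamini-Hochberg over all kept probe sequences, threshold 0.05), and the script was tested on simulated data. A gene took its brightest kept sequence. Genes other than members were counted where their accession was in RefSeq (27427 probe sequences matched), a choice made after counts under the file names were seen. The number of arrays limits the precision.

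Same-numbered fasted and fed arrays deviated from their group means together (r = 0.18 to 0.29), so a fit with the replicate number as a block was run. Same-numbered arrays share a slide and adjacent positions, so pairing and position cannot be told apart. Arrays on the same slide with other numbers correlated at r = 0.05 to 0.27, and arrays on different slides at -0.39 to -0.10. The members and gene lists were chosen with earlier results of these data known. The naming rule for genes whose values are printed array by array took those with the largest differences among the called, the smallest p in each role, and a set picked for known roles, 28 in all; Eif5b was added after its values were seen. The probe sequences and promoters printed were chosen after values were seen. Alternatives covered scaling, background, filter, blocks, each array left out, probe averaging and the series table.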

Additional observations from a re-analysis of the deposited data

Results flagged for a closer look

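In 3 of 56 groups of 4 samples, over the 28 genes of the naming rule, 1 sample stood far from the other 3, by a gap larger than Dixon's critical value for 4 samples. Chance sets apart about 1 in 20 groups. Eif2ak1 was -1.21 in fed replicate 3, where the other fed samples all read -1.28. Eif2ak3 was -0.45 in fasted replicate 3, where the others lay from -0.54 to -0.53. Eif4ebp2 was 0.97 in fasted replicate 4, where the others lay from 1.19 to 1.22. The 3 values come from 3 different arrays. Eif2ak3 kept its call without its own distant sample and lost it without any 1 of the other arrays.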

How the results depend on the processing

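Eif5 and Eif2c4 passed under every alternative with at least 3 arrays a group. Counts are given in the order all genes (2823 as reported), members higher (8), members lower (2) and related genes outside the family (14). Leaving out 1 array gave 1774 to 2417, 5 to 7, 1 to 2 and 8 to 12, with a member median of 0.020 to 0.049. Normexp background gave 1823, 2 (Eif5 and Eif1ad), 2 and 9, and no filter 1642, 5, 1 and 7. Quantile normalization gave 1 lower member. The replicate block gave 2450, 7, 1 and 8, and the calls of Eif2ak3 (adjusted p = 0.0522) and Eif2c3 (0.0742) were lost among the members. Within slide 1 and within slide 2 limma passed 0 of each, with 3517 and 2352 genes at an unadjusted p under 0.05. The member median was 0.050 with median scaling, 0.054 within slide 2 and 0.057 with the mean of a gene's sequences. Among the 28 genes of the naming rule, signs turned in Eif5a -0.016 (quantile), Eif5a2 -0.00026 (normexp), Eef1a1 -0.011 and Eif2b5 -0.00076 (within slide 1), Eif2s1 0.095 and Eif4e 0.025 (mean of sequences). With 1 array left out, Eef1a1 ranged from -0.026 to 0.021, Eif2b5 from -0.0072 to 0.034 and Eif5a2 from -0.0022 to 0.039. Eif1ad was 0.06 (adjusted p = 0.304) by the mean of its sequences. Counting genes named by the array file alone, an alternative chosen after seeing the data, gave 3444 of 20117 genes and the same member counts. The causes were not tested. Dim sequences such as Eif5b's are limited by signal over background.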
